A study of Mus musculus with 6 samples.

Results

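Retinal ganglion cells (RGCs) send their axons through the optic nerve. Followed here were 9 genes grouped as RGC marker genes: Rbpms, Rbpms2, Thy1, Slc17a6, Sncg, Sncb, Nrn1, Opn4 and Mmp17. They were taken by gene symbol from a deposited table of 10361 gene names. Of the 9 genes, 8 had an entry and all 8 passed the filter on low values (a mean of at least 1 FPKM), among 9987 genes tested. Mmp17, which encodes a membrane-bound matrix metalloproteinase, is not analysed here.

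The 6 libraries, 2 per group, came from wild-type C57/6NCrl mice and carried poly-A-selected RNA sequenced as paired 100-base reads. Adult control RGCs had received AAV2, a viral vector, with mCherry and a scrambled hairpin mimic. Adult miR-1247 RGCs had received AAV2 that expressed a miR-1247-5p mimic, a copy of a small regulatory RNA (microRNA). About 5000 mCherry-positive cells were sorted per adult condition from 10 pooled retinas. The third group was untreated RGCs of embryonic day 18 (E18), about 50000 cells that were not sorted. All 3 groups were first immunopanned on Thy1, the protein product of a gene measured here, so every group was selected for cells carrying it. Age, vector, sorting and cell number differ together between E18 and adult, and their parts in any such difference cannot be told apart. Whether paired libraries came from separate animals is not stated, so p-values reflect only how far these libraries differ, a spread that may be technical. The study's title concerns miR-1247-5p, nerve cell protection and regrowth of axons. The comparisons ask how these marker genes differ between embryonic and adult RGCs and between adult RGCs with and without the mimic.

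RGCs are the output neurons of the retina and release glutamate onto targets in the brain. Rbpms and Rbpms2 encode paired RNA-binding proteins that mark nearly all RGCs. Thy1 and Nrn1 encode proteins held on the outer cell membrane by a glycosylphosphatidylinositol (GPI) anchor. Slc17a6 encodes VGLUT2, which loads glutamate into synaptic vesicles, and Sncg and Sncb encode gamma- and beta-synuclein, small proteins of axons and presynaptic terminals. Opn4 encodes melanopsin, the photopigment of the small class of RGCs that respond to light themselves.

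A microRNA lowers its targets mainly through pairing of its seed, bases 2 to 8, with sites in the 3′ untranslated region (UTR) of a messenger RNA. The mature microRNA, from RefSeq (chr12:110278094-110278115 of GRCm38.p6, minus strand), is shown 5′ to 3′ with its seed in capitals. Below it is every GACGGG, a match to 6 seed bases, in the canonical GENCODE vM39 transcripts of the 8 listed genes. The matching bases are in capitals, and other runs of 6 seed bases were not searched.

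mmu-miR-1247-5p: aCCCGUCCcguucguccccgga
Rbpms 3′ UTR: tcactgtaaactagaGGACGGGg
Slc17a6 5′ UTR: tgcgccgcgcgcactGACGGGAg

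The Rbpms match to all 7 seed bases (GGACGGG, read on the transcript strand) begins at base 1358 of a 3′ UTR of 1553 bases (chr8:34272860-34272866 of GRCm39, minus strand). The Slc17a6 match pairs 6 seed bases (GACGGG) and is followed by an A. It begins at base 220 of a 5′ UTR of 949 bases (chr7:51271653-51271659, plus strand). GACGGG was found in no part of the canonical transcripts of Rbpms2, Thy1, Sncg, Sncb, Nrn1 or Opn4. Across the tested genes, 3.26% of 9850 3′ UTRs held GGACGGG and 9.05% held GACGGG, and 9.14% of 9772 5′ UTRs held GACGGG. A match describes the letters only, and no binding was measured.

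RefSeq's promoter table (GRCm38.p6) held 6 windows for 5 of the 9 genes. The 250 bases upstream of a start were searched on both strands for ATTAAT (a core of the site of Brn3, the POU factors of RGCs), TATAAA (the TATA box), CCAAT (the CCAAT box), GGGCGG (the GC box), TGACGTCA (the cyclic AMP response element) and CACGTG (an E-box). The 2 windows that overlap no annotated exon belong to a start of Slc17a6 inside the gene and to Opn4, and only these are shown. Whether either start is used in these cells was not tested. The windows stand on the gene's strand at the position of their single exact match in GRCm39, with motif matches in capitals.

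Slc17a6 internal start, chr7:51274135-51274384, plus strand: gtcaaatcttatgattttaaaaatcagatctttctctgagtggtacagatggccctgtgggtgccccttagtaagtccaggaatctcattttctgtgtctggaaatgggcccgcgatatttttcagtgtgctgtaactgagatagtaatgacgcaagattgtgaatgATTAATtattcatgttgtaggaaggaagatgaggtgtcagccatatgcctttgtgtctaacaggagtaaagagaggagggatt
Opn4, chr14:34322100-34322349, minus strand: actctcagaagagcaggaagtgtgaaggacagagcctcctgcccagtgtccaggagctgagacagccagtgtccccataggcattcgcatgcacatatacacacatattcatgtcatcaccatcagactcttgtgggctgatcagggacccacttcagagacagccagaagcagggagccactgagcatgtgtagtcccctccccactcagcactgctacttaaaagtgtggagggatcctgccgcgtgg

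The Slc17a6 window held a single motif, an ATTAAT that begins at position -83 from the start. That motif was present in 4.39% of 32851 promoter windows of the same length. The Opn4 window held none of the 6 motifs. Of the same 32851 windows, 12.4% held TATAAA, 33.9% CCAAT, 32.7% GGGCGG, 1.55% TGACGTCA and 6.02% CACGTG. The Slc17a6 window had 41.2% G or C bases and the Opn4 window 54.8%, each with 3 CpG pairs, against medians of 52.4% and 6 over all windows.

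Values are FPKM (fragment counts scaled to transcript length and to the mapped total), which the authors computed per gene, so levels of different genes can be set side by side per length. The table gives no read counts, so depth and counting error are unknown. The listed FPKM summed to between 339224 and 392238 per library. On the log2(FPKM + 1) scale, libraries of a group correlated across genes at 0.980 to 0.985, control with miR-1247 at 0.960 to 0.962 and E18 with adult at 0.692 to 0.701. Genes are not independent replicates. Of 10 RGC marker genes, which include Rbpms, Thy1, Slc17a6 and Sncg, all were listed, and with those 4 they summed to 2933 to 2993 FPKM in control, 1783 to 1820 in miR-1247 and 3825 to 3834 in E18 libraries. Of 12 amacrine cell markers 6 were listed and summed to 699 to 744, 934 to 979 and 313 to 327 FPKM in the same order. Of 12 markers of Müller glia and astrocytes 6 were listed and summed to 1230 to 1574, 1908 to 2017 and 181 to 182 FPKM, with Glul, glutamine synthetase, at 463 and 122 FPKM in the control libraries. Rod markers (3 of 11 listed) summed to 45.6 to 46.8, 24.3 to 26.9 and 5.57 to 6.41 FPKM. Bipolar cell markers (4 of 11 listed, mostly Isl1 at E18) summed to 40.0 to 48.4, 49.6 to 52.8 and 175 to 176 FPKM. Progenitor and cell cycle markers (4 of 12 listed) summed to 42.8 to 43.1, 41.0 to 46.7 and 85.1 to 86.2 FPKM. Horizontal cell markers (3 of 5 listed) summed to 28.2 to 32.1, 12.7 to 14.2 and 8.87 to 12.1 FPKM. Mbp, of oligodendrocytes, was at 24.2 to 24.9, 35.6 to 41.5 and 9.15 to 11.5 FPKM. Col6a1, of fibroblasts, was at 5.91 to 7.21, 12.9 to 14.8 and 19.1 to 20.9 FPKM. The marker lists of cones, microglia, endothelial cells, pigment epithelium and red blood cells had no entry.

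In adult control RGCs the synucleins and Thy1 were among the most abundant messages of the table. Sncb averaged 879 ± 16.5 FPKM (SD, n = 2), Thy1 855 ± 11.4 and Sncg 786 ± 36.2, ranks 13, 15 and 18 of 9987 genes. Nrn1 followed at 286 ± 10.9, Slc17a6 at 122 ± 3.49, Rbpms at 106 ± 6.73, Rbpms2 at 74.3 ± 1.17 and Opn4 at 29.6 ± 0.53 FPKM. No neighbours in that order overlapped between their libraries. In miR-1247 libraries Sncb ranked 8, Thy1 28 and Sncg 42, and Slc17a6 and Rbpms overlapped. At E18 Sncg ranked 10, Thy1 111 and Sncb 1432, and Sncb and Slc17a6 overlapped.

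**Figure D1:**
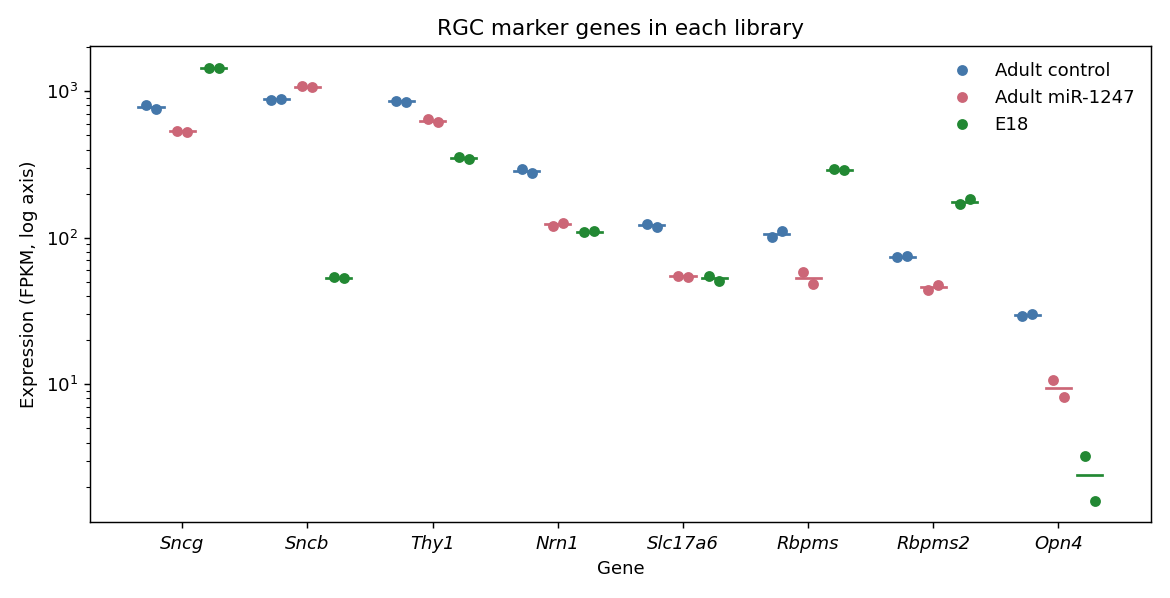
FPKM (log axis) of the 8 listed marker genes; points are the 2 libraries of each group and short lines their means. Rbpms, Rbpms2 and Sncg were highest at E18, Thy1, Nrn1, Slc17a6 and Opn4 were highest in adult control, and Sncb was highest in adult miR-1247 libraries.

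Between E18 and adult control RGCs all 8 genes passed the test, 3 higher at E18 and 5 lower. In that comparison 70.1% of all tested genes were called, 40.2% as higher and 29.8% as lower at E18, so a call by itself sets these genes little apart. Their median log2 difference was -1.23, against 0.16 over all tested genes. None of the 8 overlapped between the 2 groups, where 49.0% of all tested genes were higher and 36.5% lower without overlap. The test was limma with Benjamini-Hochberg adjustment over the 9987 genes, on log2(FPKM + 1), and differences below are on that scale. An exact permutation test of 2 against 2 libraries cannot give a p below 0.333. Another scaling, by median ratio, moved the median of all genes from 0.16 to 0.02 and the share of calls that were higher from 57.4% to 49.9%. Amacrine and glial markers were also lower at E18, 5 of 6 in each list, with median log2 differences of -3.29 and -3.41, and their part in the lower level of the 5 genes was not tested. Of the 4 listed progenitor and cell cycle markers 3 were called higher at E18, and their part was not tested either.

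Between adult miR-1247 and adult control RGCs all 8 genes again passed, 7 lower with the mimic and Sncb higher. Here the share of all tested genes called was 9.75%, with 6.22% lower and 3.53% higher. The members' median log2 difference was -0.84, against -0.03 over all tested genes. Libraries of the 2 groups did not overlap for any of the 8, where 32.4% of all tested genes were lower and 25.3% higher without overlap. In bulk samples such as these, fewer cells of a type and less RNA per cell cannot be told apart. The 6 RGC markers that are not among the 9 genes (Pou4f1, Pou4f2, Pou4f3, Isl2, Nefl and Nefm) summed to 1092 and 1095 FPKM in control and 526 and 535 with miR-1247, and all 6 were called lower. Summed rod and horizontal cell markers were lower and summed amacrine, bipolar and glial markers higher with miR-1247. Of the 4 bipolar markers 1 was called, Isl1, which was lower. Mbp (log2 0.62) and Col6a1 (0.97), markers of oligodendrocytes and fibroblasts, were called higher. Of the 6 glial markers 1 was called, Dkk3 (log2 0.35, limma adjusted p = 0.0155), and most of the rise of their sum was Glul, at 795 and 632 FPKM against 463 and 122, which did not pass (limma adjusted p = 0.116). The part of these cell types in the lower level of the 7 genes was not tested. The split of all calls depended on scaling: 36.2% were higher, against 14.9% with equal totals of listed FPKM and 47.1% with equal totals after mitochondrial genes were left out.

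Between E18 and adult miR-1247 RGCs 7 of the 8 passed, 3 higher and 4 lower at E18, against 69.9% of all tested genes called, 41.5% as higher and 28.4% as lower. Slc17a6 alone overlapped between these groups, where 50.4% of all tested genes were higher and 35.9% lower without overlap. This comparison shares libraries with the other 2, so the values of the 3 are given side by side, gene by gene.

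**Figure D2:**
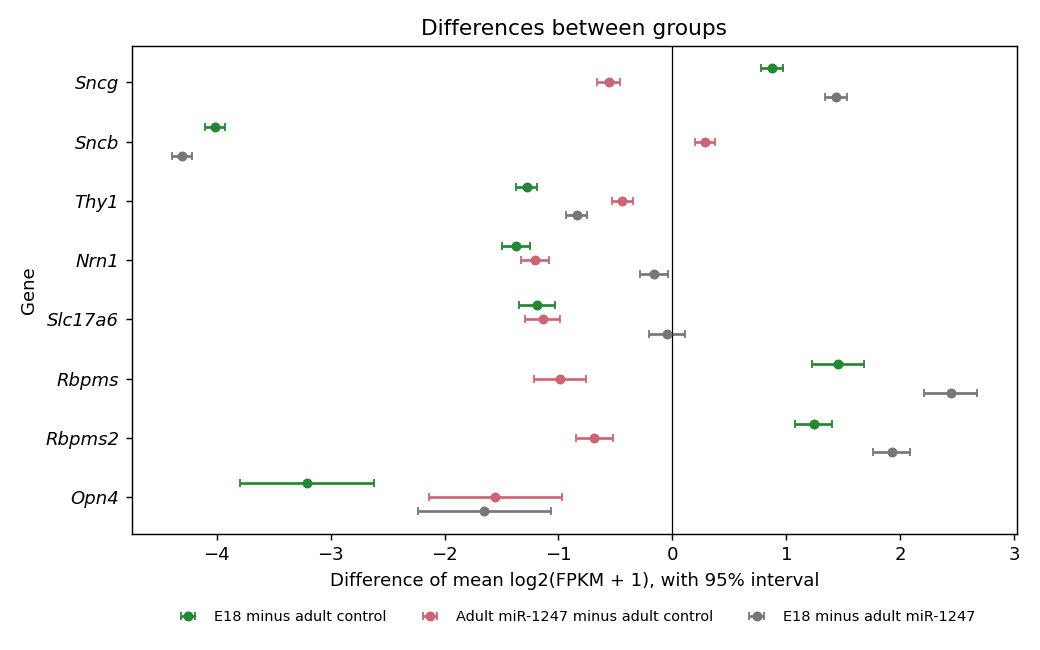
Difference of mean log2(FPKM + 1) for each gene in the 3 comparisons, with limma's 95% interval. In E18 minus adult miR-1247 the interval of Slc17a6 includes 0, and adult miR-1247 minus adult control is below 0 for every gene shown except Sncb.

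Rbpms, a general RGC marker, was highest at E18, intermediate in adult control and lowest with the mimic. It lies on chromosome 8 (gene 34272116 to 34420037 of GRCm39, minus strand, 8 exons), and the authors' assembled locus has the same coordinates as those listed for Smim18, Gtf2e2 and Gm26632. Its FPKM was 102 and 111 in the control libraries, 58.4 and 48.1 with miR-1247 and 295 and 290 at E18. The 3 groups did not overlap, and the miR-1247 pair was the lowest and the least even. Against control, Rbpms was 2.75 times as high at E18 (log2 difference 1.45 ± 0.096, SE; limma adjusted p = 2.13e-05). With miR-1247 it was 49.9% lower than control (log2 -0.99 ± 0.096, limma adjusted p = 0.00490). Between E18 and miR-1247 the log2 difference was 2.44 (limma adjusted p = 2.21e-06).

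Its paralog Rbpms2 (chromosome 9, 65536351 to 65567819, plus strand, 8 exons) had the same order of groups. It measured 73.5 and 75.1 FPKM in control, 44.2 and 47.5 with miR-1247 and 169 and 184 at E18, again with no overlap. E18 exceeded control 2.38-fold (log2 1.24 ± 0.069, limma adjusted p = 9.89e-06). The mimic group was 38.3% lower than control (log2 -0.68 ± 0.069, limma adjusted p = 0.00524). E18 exceeded it by 1.92 in log2 (limma adjusted p = 1.50e-06). Within a library, Rbpms stood at 1.38 and 1.48 times Rbpms2 in control, 1.32 and 1.01 times with miR-1247 and 1.74 and 1.57 times at E18. The miR-1247 ratios were below those of the other groups, and they differed more from each other than those of the other groups did.

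Among 25 other neuronal RNA-binding protein genes tested, 12 were higher and 8 lower at E18 than in control, with a median log2 difference of 0.23. The extremes among those called were Celf3 at 2.17 and Celf5 at 1.73, CELF-family splicing regulators, and Mbnl2 at -2.60 and Mbnl1 at -1.36, muscleblind-family splicing regulators. With miR-1247 3 of the 25 were higher and 1 was lower, with a median of -0.02. Msi1 (0.88), Celf5 (0.37) and Elavl3 (0.26, summed with Zfp653 at the same locus) were higher, and Elavl2 (-0.75), an ELAV-family RNA-binding protein, was lower.

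Thy1, the surface protein used for panning, had its highest level in adult control and its lowest at E18. The gene spans 43954332 to 43959880 of chromosome 9 (plus strand, 4 exons). Its FPKM was 863 and 847 in control, 643 and 618 with miR-1247 and 358 and 346 at E18, and no groups overlapped. Control exceeded E18 2.43-fold (log2 E18 minus control -1.28 ± 0.039, limma adjusted p = 7.10e-07). With miR-1247 Thy1 was 26.3% lower than control (log2 -0.44 ± 0.039, limma adjusted p = 0.00364), which was the smallest decrease in log2 among the 7 genes that fell. That call was lost when the variance was moderated without a trend on the mean (limma adjusted p = 0.0572). E18 was also below miR-1247 (log2 -0.84, limma adjusted p = 4.38e-06).

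Relative to Rbpms, Thy1 stood at 8.50 and 7.62 times in control libraries, 11 and 12.8 times with miR-1247 and 1.21 and 1.19 times at E18. These 2 markers of the same cells were nearly level per length in embryonic RGCs and far apart in adult ones.

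Nrn1 encodes neuritin, a GPI-anchored protein that promotes neurite growth. The authors' locus on chromosome 13 (36909335 to 37234220) is longer than the annotated gene (36909335 to 36919156, minus strand, 3 exons). Its FPKM was 294 and 278 in control, 121 and 125 with miR-1247 and 109 and 111 at E18. The control libraries stood apart, and the other 2 groups lay close together without overlapping. Control exceeded E18 2.60-fold (log2 E18 minus control -1.37 ± 0.051, limma adjusted p = 1.83e-06). With miR-1247 Nrn1 was 56.9% lower than control (log2 -1.21 ± 0.051, limma adjusted p = 0.000203). E18 was lower than miR-1247 by 0.16 in log2 units (95% interval -0.29 to -0.04, limma adjusted p = 0.0250). This last call was lost without miR-1247 replicate 2 (adjusted p = 0.110) or either E18 library (0.0911 and 0.0599), with equal totals (0.120) and without the variance trend (0.135), all by limma. With median ratio scaling the difference was larger, at -0.35 (limma adjusted p = 0.000840), as it was with equal totals after mitochondrial genes were left out, at -0.33 (limma adjusted p = 0.000983).

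Nrn1 was 0.340 and 0.329 of Thy1 in control, 0.188 and 0.203 with miR-1247 and 0.304 and 0.321 at E18. The ratio of these 2 GPI-anchored proteins' messages was lowest in the miR-1247 libraries. Among 34 other genes of GPI-anchored neuronal surface proteins, 13 were higher and 13 lower at E18 than in control, with a median log2 difference of 0.08. Gpc2, a glypican, was higher by 5.84, and Lynx1, a modulator of nicotinic receptors, and Omg, a myelin-associated inhibitor of axon growth, differed by -5.41 and -4.31. Cntfr, the receptor for ciliary neurotrophic factor, was listed at 0 in all 4 adult libraries and at 49.1 and 55.0 FPKM at E18. With miR-1247 9 of the 34 were lower and 1 was higher, with a median of -0.09. Cd24a (-1.0), Lynx1 (-0.80) and Lsamp (-0.30) were lower and Gpc6 (1.15), another glypican, was higher. Of 26 genes that make and attach the GPI anchor, 8 were higher and 6 lower at E18, and with miR-1247 only Pigp (1.07) was called.

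Slc17a6, which encodes the vesicular glutamate transporter VGLUT2, was the gene whose miR-1247 and E18 levels could not be separated. It lies on chromosome 7 (51271434 to 51320867, plus strand, 12 exons). Its FPKM, summed over 2 entries at the same coordinates, was 124 and 119 in control, 55.0 and 54.2 with miR-1247 and 54.9 and 50.7 at E18. The control libraries stood well above all the others, and the miR-1247 and E18 libraries overlapped. Control exceeded E18 2.30-fold (log2 E18 minus control -1.19 ± 0.066, limma adjusted p = 9.90e-06). With miR-1247 Slc17a6 was 55.1% lower than control (log2 -1.14 ± 0.066, limma adjusted p = 0.00109). The log2 difference between E18 and miR-1247 was -0.05 (95% interval -0.21 to 0.11, limma adjusted p = 0.536). The 2 groups were not shown to be alike, and the difference passed with median ratio scaling (-0.24, limma adjusted p = 0.0169) and with equal totals after mitochondrial genes were left out (-0.21, limma adjusted p = 0.0253).

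Slc17a6 and Nrn1 kept a similar ratio in every library, lowest in control and highest at E18, with no overlap of groups. Slc17a6 stood at 0.423 and 0.428 of Nrn1 in control, 0.454 and 0.432 with miR-1247 and 0.505 and 0.457 at E18. Over the same 6 libraries the ratio to Rbpms was 1.22 and 1.07 in control, 0.941 and 1.13 with miR-1247 and 0.187 and 0.175 at E18, so the 2 adult groups overlapped and E18 lay far below.

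**Figure D3:**
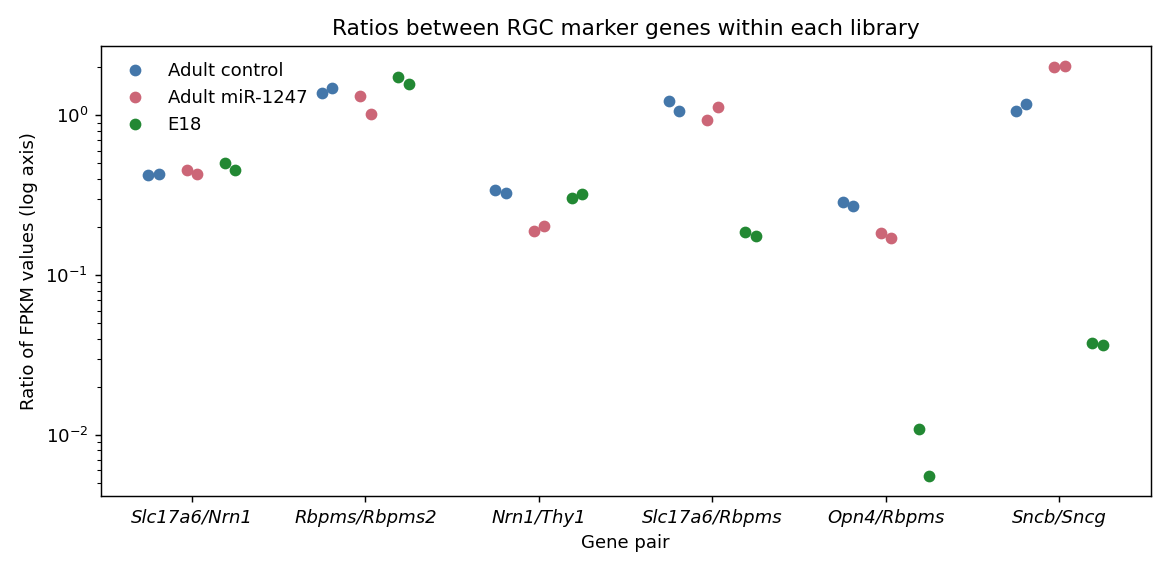
Ratios of FPKM between pairs of marker genes within each library (log axis); each point is a library. Slc17a6/Nrn1 stayed between 0.423 and 0.505 in all 6 libraries, and Sncb/Sncg ranged from 0.0366 to 2.03.

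Of 11 other genes of vesicular transport and glutamate handling, 2 were higher and 6 lower at E18 than in control. Slc18a2, the vesicular monoamine transporter, was at 5.24 and 4.31 FPKM in control and 117 and 116 at E18 (log2 4.35), and Slc38a2, a glutamine transporter, was higher by 1.14. Got1, a transaminase that makes glutamate, and Slc1a1, a glutamate uptake transporter, differed by -2.29 and -1.98. With miR-1247 3 of the 11 were lower, among them Slc38a2 (-0.61) and Got2 (-0.30), a mitochondrial transaminase. None was higher by limma's adjusted p, and 5 were higher at an unadjusted p under 0.05.

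Sncg was the higher of the 2 synuclein genes at E18 and Sncb in both adult groups. Sncg, a marker of RGCs and their axons, lies on chromosome 14 (34092231 to 34100539, minus strand, 5 exons), where Mmrn2 is annotated on the other strand. The authors' locus (34092231 to 34096804) is shorter than the annotated gene. Sncg was at 812 and 761 FPKM in control, 538 and 527 with miR-1247 and 1436 and 1451 at E18. The E18 libraries were the highest and the miR-1247 libraries the lowest, with no overlap. E18 exceeded control 1.84-fold (log2 0.88 ± 0.040, limma adjusted p = 4.42e-06), and this log2 difference was 0.38 after quantile normalization. With miR-1247 Sncg was 32.3% lower than control (log2 -0.56 ± 0.040, limma adjusted p = 0.00204). E18 exceeded miR-1247 by 1.44 in log2 (limma adjusted p = 5.66e-07).

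Sncb (chromosome 13, 54906660 to 54914432, minus strand, 6 exons) had the largest difference between E18 and adult among the 8 genes. It measured 868 and 891 FPKM in control, 1079 and 1067 with miR-1247 and 53.8 and 53.1 at E18. The E18 pair lay far below all 4 adult libraries, and the miR-1247 pair lay above the control pair. Control exceeded E18 16.5-fold (log2 E18 minus control -4.02 ± 0.037, limma adjusted p = 1.55e-08). Sncb was the only one of the 8 genes above control with miR-1247, at 1.22 times its level (log2 0.29 ± 0.037, limma adjusted p = 0.0115). That call did not hold under every setting. Limma's adjusted p was 0.0514 to 0.0792 when any of the 4 adult libraries was left out, 0.195 with equal totals (log2 0.18), 0.0953 after quantile normalization and 0.102 without the variance trend. Beside this, of the 6 listed amacrine markers 2 were higher with miR-1247, among them Pax6 (log2 0.42, limma adjusted p = 0.00871), Calb1 was lower by 1.16 (limma adjusted p = 0.0137) and Gad2, Slc6a9 and Npy did not pass. Their part in the level of Sncb was not tested.

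Sncg and Sncb together were at 1680 and 1652 FPKM in control, 1617 and 1593 with miR-1247 and 1489 and 1504 at E18. The sum spanned a narrow range while its makeup did not. It was taken only from the deposited FPKM and was not examined under another scaling. Sncb was 51.7% and 53.9% of the sum in control, 66.7% and 66.9% with miR-1247 and 3.61% and 3.53% at E18. As a ratio, Sncb stood at 1.07 and 1.17 times Sncg in control, 2.0 and 2.03 times with miR-1247 and 0.0375 and 0.0366 times at E18, and no groups overlapped.

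**Figure D4:**
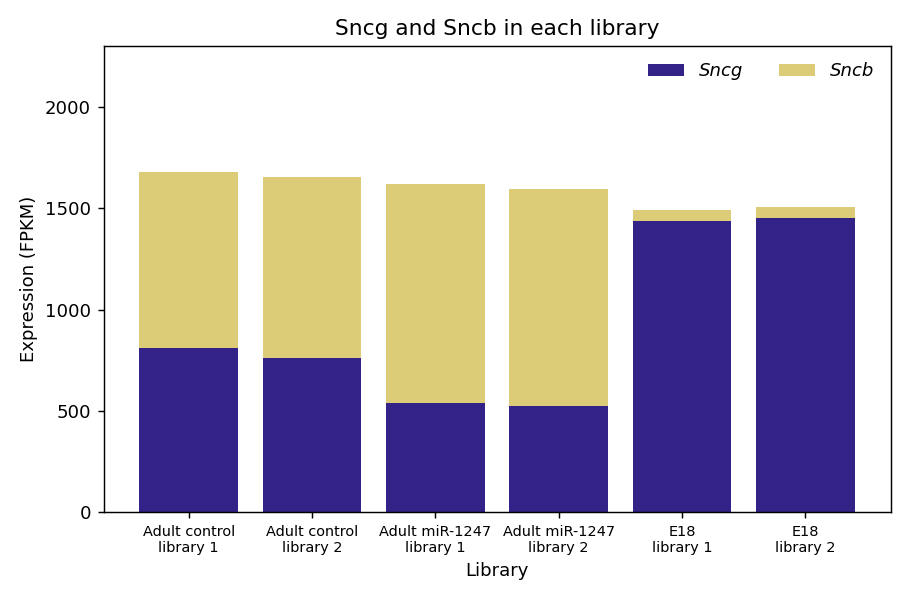
Stacked FPKM of Sncg and Sncb in each library (linear axis from 0). The stacks reach 1489 to 1680 FPKM, and Sncb makes up 51.7% to 66.9% of the adult stacks and 3.53% to 3.61% of the E18 stacks.

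Of 7 tested genes in a list of proteins linked to synucleins, Sncg and Sncb left out, 3 were higher and 2 lower at E18 than in control. Sncaip (log2 3.14), which encodes the synuclein-binding protein synphilin, Uchl1 (0.77), a ubiquitin hydrolase, and Hspa8 (0.22), a chaperone, were higher. Pink1 (-2.21), a mitochondrial kinase, and Dnajc5 (-0.32), a synaptic vesicle chaperone, were lower. With miR-1247 0 of the 7 passed by limma's adjusted p, and 1 was lower and 0 higher at an unadjusted p under 0.05.

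Opn4, the melanopsin gene (chromosome 14, 34312575 to 34322099, minus strand, 9 exons), was the least abundant of the 8 and had the largest fall in log2 with the mimic. Its FPKM was 29.2 and 29.9 in control, 10.7 and 8.23 with miR-1247 and 3.21 and 1.61 at E18. Groups did not overlap, and the E18 libraries differed most from each other relative to their mean. Control exceeded E18 12.3-fold (log2 E18 minus control -3.21 ± 0.244, limma adjusted p = 4.04e-05). With miR-1247 Opn4 was 67.9% lower than control (log2 -1.55 ± 0.244, limma adjusted p = 0.0188). This call was lost when any of the 4 adult libraries was left out (limma adjusted p 0.0751 without control replicate 1, 0.0818 without control replicate 2, 0.0762 without miR-1247 replicate 1 and 0.102 without miR-1247 replicate 2). E18 was below miR-1247 by 1.65 in log2 (limma adjusted p = 0.000942).

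Of 11 other genes of melanopsin cells and their light response, 9 were lower and 2 higher at E18 than in control, with a median log2 difference of -1.19. Eomes, a transcription factor of melanopsin RGCs, differed by -2.82, Hcn2, a pacemaker channel, by -2.36 and Plcb4, the phospholipase of the pathway, by -1.44. Gnaq, a G protein alpha subunit, was higher by 1.04 and Arrb2, an arrestin, by 0.72. With miR-1247 2 of the 11 were lower, Adcyap1 (-0.97), the neuropeptide PACAP of melanopsin RGCs, and Eomes (-0.71), and the other 9 did not pass.

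RGC identity genes outside the 9 were examined as a list of 28 tested genes. At E18 21 of them were higher than in control and 7 lower, with a median log2 difference of 1.43. Sox11 and Sox4, transcription factors of young neurons, were higher by 4.25 and 3.62, and Nefh, the heavy neurofilament, differed by -3.87. Pvalb, a calcium-binding protein, was at 28.2 and 41.3 FPKM in control and was listed at 0 and 0.487 at E18 (log2 -4.85). With miR-1247 21 of the 28 were lower than control and none was higher by limma, also at an unadjusted p under 0.05 (22 lower, 0 higher), with a median of -0.64, against 6.22% of all tested genes lower. The extremes were Isl2, a transcription factor of RGCs, at -1.35 and Nefm, the middle neurofilament, at -1.16, and L1cam, an axonal adhesion protein, at -0.41 and Stmn2, a growth cone protein, at -0.30.

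Of 24 tested RGC subtype genes, 5 were higher and 14 lower at E18, with a median log2 difference of -1.19, and Zic1 (3.15), Foxp2 (1.61), Prdm8 (-5.05) and Penk (-5.60) were the extremes. With miR-1247 9 of the 24 were lower, from Neurod2 (-1.27) and Foxp2 (-0.99) to Jam2 (-0.56), and Igfbp2 (0.95) was higher, with a median of -0.60. Of 10 tested matrix metalloproteinase, inhibitor and related protease genes, 5 were higher and 3 lower at E18, among them Mmp9, at 69.4 and 64.9 FPKM in control and 0.382 and 0.134 at E18. None of the 10 passed with miR-1247 by limma's adjusted p, and 2 were lower and 0 higher at an unadjusted p under 0.05.

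The genes whose profiles over the 6 libraries were most like each of the 8 were found by the root mean square (RMS) difference of centred log2(FPKM + 1) values, where a smaller value is a closer likeness. For Slc17a6 the closest of all tested genes was Nrn1 (0.089, against a median of 0.69 over all tested genes), and for Nrn1 it was Slc17a6. Adcyap1 (0.126) came next for Slc17a6 and Cutc (0.096) for Nrn1. For Thy1 they were Ypel5 (0.046) and Miga2 (0.049). For Rbpms Ebf1 (0.130), a transcription factor, was among the 2 closest, and for Rbpms2 they were the locus shared by Fdps and Rusc1 (0.044) and Zdhhc2 (0.058). For Sncg they were Acadvl (0.067) and Efr3b (0.069), and for Sncb Tppp (0.069) and Rgs8 (0.079), a regulator of G protein signalling. Tppp, a tubulin-binding protein, was at 146 and 136 FPKM in control, 156 and 157 with miR-1247 and 7.24 and 7.08 at E18.

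Opn4 had no neighbour as close, with Rom1 at 0.244 and Cbr4 at 0.253. Rom1, a rod outer segment protein, was at 29.8 and 29.2 FPKM in control, 16.0 and 13.0 with miR-1247 and 3.78 and 2.48 at E18, which are levels near those of Opn4. Rom1 is the largest of the 3 listed rod markers in every library except E18 replicate 2, where Reep6 is, and its part in the level of Opn4 was not tested. Among pairs of the 8 genes, the closest after Slc17a6 and Nrn1 were Rbpms2 with Sncg (0.215) and Rbpms with Rbpms2 (0.243).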

How the data were processed

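RNA of RGCs from 3 groups of 2 libraries was measured. Per the labels' protocols, RNA of integrity number 9 or more was made into libraries with the TruSeq kit, and the authors mapped reads to mm39 (the same assembly as GRCm39) with HISAT2 and computed FPKM with Cufflinks and Cuffdiff, whose versions are not given in the sources used here. The deposited FPKM values hold 1e-05 added to each, which was subtracted. The deposited log2 ratios of group means were used only for a check and matched recomputed ratios within 0.002056 over 11104 entries. No sample column was left unmapped.

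The 10889 loci were summed by gene name, and names on the same loci were taken once. Genes with a mean of at least 1 FPKM were tested as log2(FPKM + 1), a scale that understates changes of low genes, with limma 3.58.1 in R 4.3.3: 3 group means over all 6 libraries, variance moderated with a trend and Benjamini-Hochberg adjustment at 0.05. The procedure was also run on simulated data with independent normal noise whose spread followed the mean, as the test assumes. That run does not show how the procedure performs on these FPKM values. The 8 genes, the 2 likest genes of each and, for lists of more than 12 genes, up to 4 called extremes were named, and shorter lists could be named in full. A few genes that these rules name are not reported here. The members and lists were chosen with earlier results of these data known, and support nothing as independent evidence. Without counts, no confidence interval for depth could be given. Sequences came from RefSeq and GENCODE, read with Python 3.11.15, and 18 alternative settings were run.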

Additional observations from a re-analysis of the deposited data

How the results depend on the processing

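Over 18 alternatives for each of 24 differences (8 genes in 3 comparisons), 412 values kept their direction and their side of the threshold. A further 17 lost the call, 2 gained it and 1 changed sign. That was Slc17a6 between E18 and miR-1247, at -0.05 as reported and 0.00869 without E18 replicate 2, not called in either case. This difference was -0.10 without E18 replicate 1, and its lowest value was -0.24, with median ratio scaling. Alternatives such as another filter, no variance trend or the replicate block leave the difference of group means as it was. Only the call could change under these, so a kept direction there shows nothing. All 8 genes were called between E18 and control under every alternative. Between miR-1247 and control the lost calls were those of Sncb, Opn4 and Thy1 given with those genes, leaving 6 to 8 called, and between E18 and miR-1247 those of Nrn1, with Slc17a6 gained, leaving 6 to 8 called. The count of all genes called between miR-1247 and control depended most on the setting: 974 as reported, 343 without a variance trend, 347 from the 4 libraries compared and 121 to 242 without any 1 of the 6 libraries, the lowest without miR-1247 replicate 1. A library left alone in its group was assumed to vary like the others. With the replicate number as a block it was 584, and the block changed no call among the 8 genes. Deviations of libraries with the same number correlated at -0.00812, -0.00175 and 0.00353. No effect shared by libraries of the same number was seen, which does not show whether they were prepared together. Read depth is unknown, which limits what can be said of Opn4 at E18.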
